A study of Rattus norvegicus with 12 samples.

Results

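The elastic fiber genes described here are 10 genes that encode the core, the scaffold and the cross-linking enzymes of elastic fibers: Eln, Fbn1, Fbn2, Mfap2, Mfap5, Fbln1, Fbln2, Fbln5, Lox and Loxl1. They were chosen by name, because Eln and Fbn1 were higher in the rat Müller cell line SIRMu-1 and because Fbn2 separated that line from the line rMC-1. Their levels in SIRMu-1 against either other group, and those of Fbn2 in all 3 groups, are therefore a description without a test. Of the 10 genes, 9 were in the count files, which hold 17315 genes in all, and the same 9 were among the 11321 genes kept by a filter on low counts. Fbln2 was not analysed here. Eln, Fbn2 and Mfap5 met that filter through the primary and SIRMu-1 libraries, and Mfap2 through the primary libraries. These genes thus had to differ between groups to be tested at all. Their levels in rMC-1 against primary cultures are therefore given without a p-value.

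Polyadenylated RNA was sequenced from 12 cultures of rat Müller cells, the main glia of the retina. Primary cultures (n = 4) came from Sprague-Dawley pups at postnatal day 2 to 4, were at passage 3 or 4 and were grown in 20% serum with 87 mg/L gentamicin, an antibiotic, and 2.2 mg/L amphotericin B, an antifungal. SIRMu-1 (n = 5) is 1 spontaneously immortalized line from pups of that strain and age, at passage 6, 11 or 20 in 20% serum, with those drugs added in replicates 3 and 5 only. The line rMC-1 (n = 3) came from adult Sprague-Dawley retina, is known to carry the SV40 large T antigen, and was grown at passage 23 or 26 in 10% serum with neither drug. All cultures had 25 mM glucose and 2 mM glutamine. Each line is 1 origin, so its libraries show the spread between cultures and not between lines. In rMC-1 against primary cultures, the line, donor age, serum, drugs and passage cannot be told apart. In SIRMu-1 against rMC-1 this holds for the line, donor age, serum and passage, and in SIRMu-1 against primary cultures for the line and passage. The drugs were in every primary library but only in replicates 3 and 5 of SIRMu-1. SIRMu-1 replicates 1, 2 and 4 lacked the drugs as rMC-1 did, and against rMC-1 these 3 libraries alone left 7 of the measured genes higher and 1 lower, the counts given below for all 5.

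Reads counted in genes ran from 22582345 to 29812705 per primary library, from 26349346 to 36730443 per SIRMu-1 library and from 27351014 to 38125630 per rMC-1 library. The labelled cell type was checked against marker lists. Of 10 Müller glia markers, 7 had a mean above 1 read per 1000000 reads in genes (CPM) in primary cultures, 6 in SIRMu-1 and 4 in rMC-1. Their summed level was 7235 to 8739, 3443 to 4473 and 1446 to 1532 CPM. Most of that sum was Vim, with means of 6207, 3540 and 1367 CPM in the same order. Other markers did not follow the sum: Sox9 had means of 52.2, 71.6 and 0.0358 CPM, and Rlbp1 of 0.0654, 0.156 and 0.910 CPM. The defining markers Aqp4, a water channel, and Car2, a carbonic anhydrase, had no count in either line, and Kcnj10, a potassium channel, had none in SIRMu-1. Aqp4 and Kcnj10 were scarce in primary cultures too. Aqp4 had 2 counts in all there, in replicate 4, and Kcnj10 had 1 to 8 counts per primary library and 2 to 4 in rMC-1. The summed level of 8 fibroblast markers, which include collagens and Dcn, was 29940 to 134500 CPM in primary cultures, 37770 to 58770 in SIRMu-1 and 3359 to 4865 in rMC-1. That of 8 pericyte and smooth muscle markers was 9988 to 14570, 6973 to 16450 and 1443 to 3669 CPM, in the same order. No marker of these 2 lists was at 0 over a whole group, but the sums hide unequal members. Col1a1 alone had a mean of 36743 CPM in SIRMu-1, whereas Thy1, a surface protein, had 4 counts there in 5 libraries (0.0287 ± 0.0310 CPM, SD, n = 5) against 133 to 1078 CPM in primary cultures. The summed levels were lowest in rMC-1, as were most of the elastic fiber genes, and the part of such cells in the results was not tested. In bulk RNA, fewer cells of a type and less RNA per cell cannot be told apart.

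Elastic fibers give tissues recoil. Tropoelastin, the product of Eln, is secreted as a monomer, gathered by fibulins, laid onto a scaffold of fibrillin microfibrils and cross-linked by lysyl oxidases, which act on its lysines and need copper. Microfibrils also hold latent TGF-beta, through binding proteins of the LTBP family. In the eye, the ciliary zonule that suspends the lens is built of fibrillin microfibrils, and the Müller cell contributes to the inner limiting membrane of the retina.

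RefSeq promoter sequences on the rat assembly GRCr8 were given for 7 of the 10 genes, and are read here as the 250 bases before the start, with all positions on that assembly and not on rn6, the build named for the counts. The windows of Mfap5, the gene with the fewest reads in rMC-1, and of Loxl1, which kept a substantial level in that line, are shown because both windows lie outside the annotated gene and the 2 genes differed widely in how far they fell in that line. Both are written 5′ to 3′ on the gene's strand, with each CpG in capitals.
Mfap5, chr4:157399669-157399918, plus strand: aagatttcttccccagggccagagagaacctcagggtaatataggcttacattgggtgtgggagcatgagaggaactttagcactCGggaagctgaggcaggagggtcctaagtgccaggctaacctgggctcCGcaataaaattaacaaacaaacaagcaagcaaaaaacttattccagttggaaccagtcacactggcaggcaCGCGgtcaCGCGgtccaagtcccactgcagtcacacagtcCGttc
Loxl1, chr8:67612225-67612474, minus strand: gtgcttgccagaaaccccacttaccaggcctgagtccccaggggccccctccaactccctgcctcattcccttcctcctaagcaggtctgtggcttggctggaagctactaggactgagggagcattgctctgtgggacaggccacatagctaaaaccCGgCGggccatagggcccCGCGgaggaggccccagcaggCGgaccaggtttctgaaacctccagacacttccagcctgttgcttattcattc
The Mfap5 window held 7 CpG and the Loxl1 window 5, against a median of 5 over the windows of 33469 promoters. Fbn2 had 34 CpG in its window and Fbn1 24, so that the 2 fibrillin windows were richer in CpG than those of Mfap2 (15), Fbln5 (14) and Fbln2 (12). The windows of Fbn1 and Mfap2 lay wholly inside the annotated gene, as did 195 of the 250 bases for Fbln2 and 141 for Fbln5. The Fbn2 window lay outside the gene, like the 2 printed, but is not printed here. On both strands, the Mfap5 window had 1 CCAAT, found in 34.0% of all windows, and 1 E-box, CANNTG, found in 65.5%. The Loxl1 window had 1 GGAATG, the core of a TEAD site, found in 12.1%. Neither window matched TATAAA (12.9% of all windows). The GC box GGGCGG (30.5%) and the letters TGANTCA of an AP-1 site (6.34%) were not matched either. A match is a match of letters, and binding was not measured.

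Eln, which encodes tropoelastin, differed widely between the groups and also within them. Its level, in CPM after scaling by TMM factors, was 5.80, 8.35, 126 and 66.8 in primary replicates 1 to 4, a mean of 51.8 ± 57.2 (SD, n = 4). In SIRMu-1 it was 304, 1843, 696, 3453 and 4840 in replicates 1 to 5, a mean of 2227 ± 1905 (SD, n = 5). In rMC-1 it was 0.228, 1.26 and 0.184, a mean of 0.556 ± 0.607 (SD, n = 3). The 3 groups did not overlap, and within each of them the highest library exceeded the lowest by several fold: 21.8-fold in primary cultures, 15.9-fold in SIRMu-1 and 6.82-fold in rMC-1. The fitted difference of SIRMu-1 from primary cultures was 43.0-fold (log2 5.43 ± 1.20, SE), and leaving out primary replicate 3, the highest of its group, made it 6.37 on the log2 scale. Eln was lower by 6.47 ± 1.51 (SE) on the log2 scale in rMC-1 than in primary cultures. It was lower by 5.52 without primary replicate 3 and by 7.86 without rMC-1 replicate 2. Between the lines, the ratio of summed counts was 3605 (95% counting interval 2880 to 4576), from 318105 counts in SIRMu-1 and 76 in rMC-1. The fitted difference between the lines was log2 11.89 ± 1.84 (SE), or 13.28 without rMC-1 replicate 2 and 11.30 without SIRMu-1 replicate 5.

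The low and high Eln libraries of the primary cultures followed the passage. Replicates 1 and 2, at passage 4, were both under 10 CPM, and replicates 3 and 4, at passage 3, were both above 60 CPM. The first pair also shares a code in the names of the authors' files, which no source used here explains, so passage and that code cannot be told apart. In SIRMu-1 Eln was lowest in the passage 6 library and highest in the passage 20 library, which had the drugs, with the 3 passage 11 libraries spread from 696 to 3453 CPM between them.

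**Figure D1:**
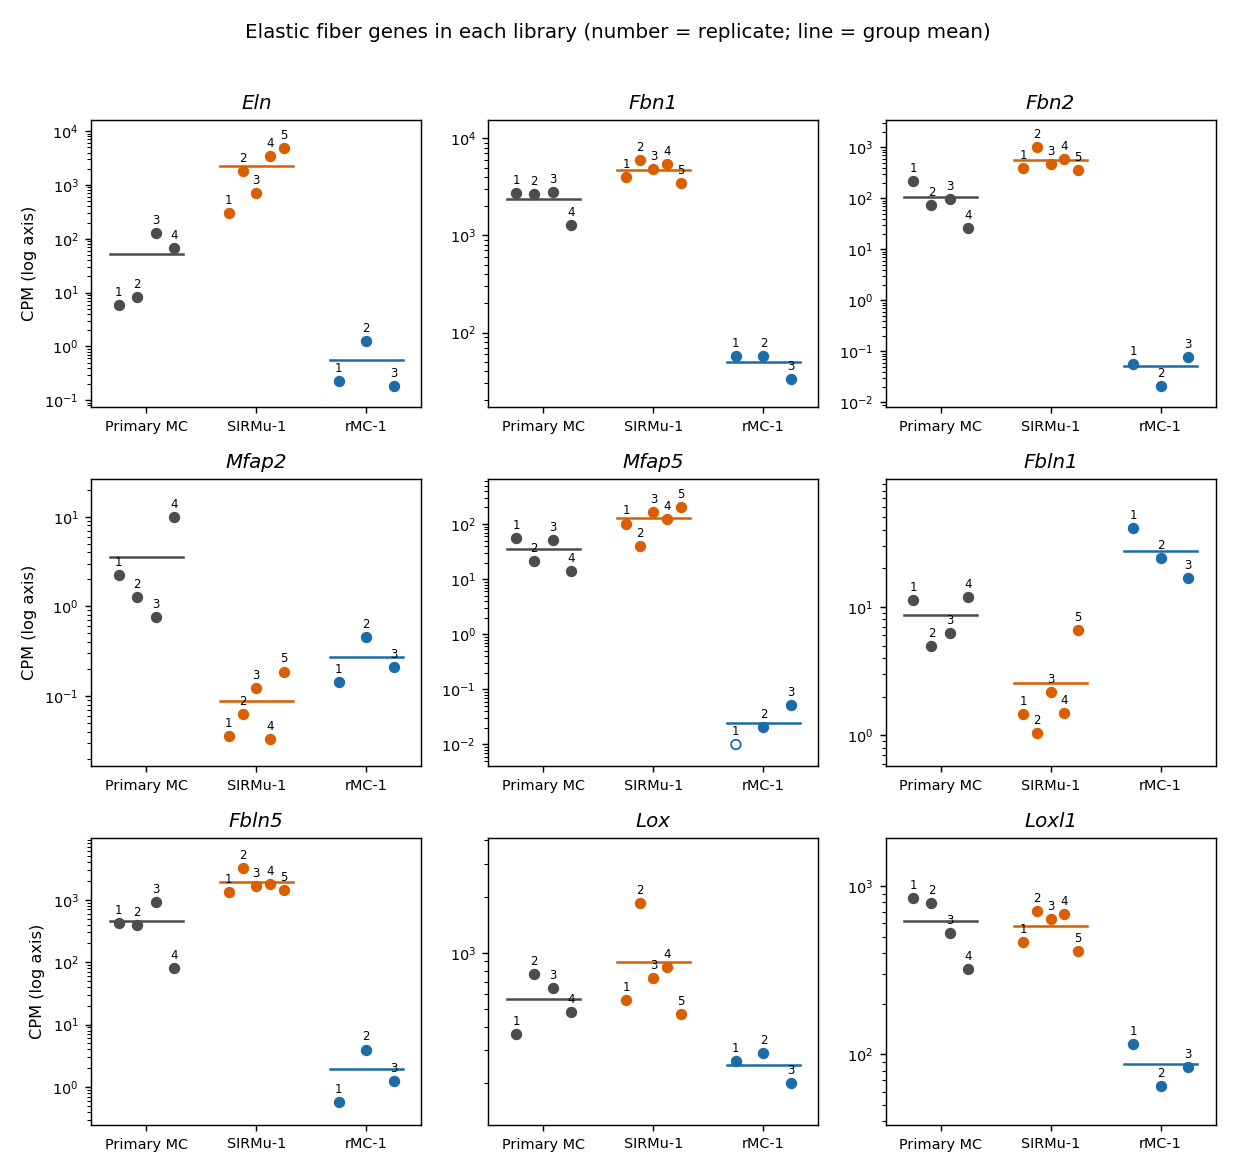
Level of each of the 9 measured elastic fiber genes in every library, in CPM scaled by TMM factors on a log axis, with 1 panel per gene, 1 point per library and a bar at the group mean. Eln separated the 3 groups but spanned 304 to 4840 CPM within SIRMu-1, whereas Fbn1 stayed between 3466 and 5956 CPM there.

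Among the microfibril genes, Fbn1 and Fbn2, the fibrillins that form the scaffold, and Mfap5, a glycoprotein bound to it, had higher mean levels in SIRMu-1 than in primary cultures, and the related Mfap2 had a lower one. All 4 were at or below 57.9 CPM in every rMC-1 library. Fbn1 had 2738, 2686, 2787 and 1271 CPM in primary replicates 1 to 4. In SIRMu-1 it had 3995, 5956, 4883, 5446 and 3466 CPM, and in rMC-1 it had 57.9, 56.9 and 33 CPM. The 3 groups did not overlap, and primary replicate 4 was the only primary library below 2686 CPM. The mean was 2370 ± 734 (SD, n = 4), 4749 ± 1022 (SD, n = 5) and 49.3 ± 14.1 CPM (SD, n = 3), a 2.00-fold difference of SIRMu-1 from primary cultures (log2 1.00 ± 0.27, SE). In rMC-1, Fbn1 fell by 5.59 ± 0.39 (SE) on the log2 scale against primary cultures, a 48.1-fold difference. Its Benjamini-Hochberg adjusted p was 3.49e-07 in edgeR's quasi-likelihood test.

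Fbn2, the fibrillin prominent in developing tissue, had 223, 74.2, 97.4 and 26.1 CPM in primary replicates 1 to 4 and 392, 1005, 474, 597 and 358 CPM in SIRMu-1 replicates 1 to 5. In the rMC-1 libraries it had 2, 1 and 3 counts. Every SIRMu-1 library was above every primary library, and the primary libraries spanned 8.54-fold. The fitted difference of SIRMu-1 from primary cultures was 5.37-fold (log2 2.43 ± 0.53, SE), or log2 3.10 without primary replicate 1, the highest of its group. Against rMC-1, the ratio of summed counts was 11787 for SIRMu-1 (95% counting interval 5415 to 32120) and 2171 for primary cultures (997 to 5917). The fitted log2 difference of rMC-1 from primary cultures was -10.93 ± 1.03 (SE). It was -10.26 without primary replicate 1 and -9.82 with a prior count of 2.

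The balance of the 2 fibrillins, taken as counts of Fbn2 per 100 counts of Fbn1, was 2.05 to 8.14 in primary cultures with a median of 3.13. In SIRMu-1 it was 9.70 to 16.9 with a median of 10.3, above every primary library, and in rMC-1 it was 0.036 to 0.239. These ratios do not account for transcript length, so they compare groups and not the amounts of the 2 transcripts. Replicate 2 had the highest balance of the line and the other 4 libraries were at 9.70 to 11.0, while Eln per 100 counts of Fbn1 ran from 7.61 to 139.7 over the same line.

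Mfap5 had 54.7, 21.5, 50.5 and 13.9 CPM in primary cultures and 102, 39.7, 168, 122 and 201 CPM in SIRMu-1. SIRMu-1 replicate 2, at 39.7 CPM, lay inside the primary range and the other 4 libraries above it, and the fitted difference was 3.60-fold (log2 1.85 ± 0.49, SE). The rMC-1 libraries had 0, 1 and 2 counts of Mfap5, and the library without a count could hold up to 0.0855 CPM, the level of 3 counts. Mfap5 fell in rMC-1 against primary cultures (edgeR adjusted p = 4.44e-06), with a ratio of summed counts of 1421 (95% counting interval 486 to 6894). The fitted difference was log2 -10.25 ± 1.03 (SE). It was -11.03 without rMC-1 replicate 3 and -8.59 with a prior count of 2 in place of edgeR's default, since so few counts leave it dependent on that constant. Intervals and limits of this kind cover counting error only.

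Mfap2, a small glycoprotein of fibrillin microfibrils, ran against the other microfibril genes in SIRMu-1. It was low in all groups, with 2.25, 1.27, 0.760 and 9.96 CPM in primary cultures. SIRMu-1 had 0.0329 to 0.187 CPM with a median of 0.0629, from 12 counts in 5 libraries, and rMC-1 had 0.142, 0.453 and 0.211 CPM. Every library of both lines was below every primary library, and the lines overlapped. The ratio of summed counts of primary cultures to SIRMu-1 was 40.5 (95% counting interval 22.9 to 79.1). In rMC-1, Mfap2 was lower than in primary cultures by 3.68 ± 0.93 (SE) on the log2 scale, and by 2.37 without primary replicate 4, the library at 9.96 CPM. Leaving out that library also moved the SIRMu-1 difference from -5.29 to -3.99 on the log2 scale.

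The 2 measured fibulins differed from primary cultures in opposite directions in both lines. Fbln5, which binds tropoelastin and lysyl oxidase-like enzymes and is needed for fiber assembly, had 417, 392, 907 and 80.7 CPM in primary cultures. It had 1349, 3212, 1672, 1778 and 1453 CPM in SIRMu-1 and 0.570, 3.98 and 1.24 CPM in rMC-1. The groups did not overlap, and SIRMu-1 was 4.22-fold above primary cultures (log2 2.08 ± 0.64, SE), or log2 2.67 without primary replicate 3. In rMC-1, Fbln5 fell by 7.84 ± 0.99 (SE) on the log2 scale (edgeR adjusted p = 2.67e-05), by 7.24 without primary replicate 3 and by 8.87 without rMC-1 replicate 2. The difference between the lines was log2 9.91 ± 1.07 (SE), or 10.92 without rMC-1 replicate 2.

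Fbln1, a fibulin found in elastic fibers and basement membranes, had 11.4, 4.98, 6.26 and 11.9 CPM in primary cultures. In SIRMu-1 it had 1.46, 1.04, 2.19, 1.48 and 6.56 CPM, and in rMC-1 41.3, 24 and 16.9 CPM. It was the single measured gene of the 9 with its highest level in rMC-1. Replicate 5 of SIRMu-1, at passage 20 with the drugs, was the only library of that line to reach the primary range. The difference of SIRMu-1 from primary cultures was -1.77 ± 0.53 (SE) on the log2 scale and -2.51 without that library. Against rMC-1 it was -3.43 ± 0.57 (SE), or -4.24 without that library. Fbln1 rose by 1.67 ± 0.58 (SE) on the log2 scale in rMC-1 against primary cultures (edgeR adjusted p = 0.0226), and the groups did not overlap. This call was lost without primary replicate 2 (log2 1.47, adjusted p = 0.0576), without primary replicate 3 (1.54, 0.053) and without rMC-1 replicate 1 (1.32, 0.0902). Over all alternatives its adjusted p ran from 0.00184 to 0.0902.

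The cross-linking enzymes differed least between SIRMu-1 and primary cultures. Lox, the founding lysyl oxidase, had 367, 767, 647 and 481 CPM in primary cultures, 558, 1850, 732, 837 and 470 CPM in SIRMu-1, and 265, 291 and 201 CPM in rMC-1. SIRMu-1 overlapped with primary cultures, with a difference of 0.65 ± 0.37 (SE) on the log2 scale. Lox fell by 1.17 ± 0.43 (SE) on the log2 scale in rMC-1 against primary cultures (edgeR adjusted p = 0.0304). This call was lost with scaling by library totals (log2 -0.68, adjusted p = 0.136), without primary replicate 2 (-0.99, 0.0735) or 3 (-1.10, 0.0566), and without rMC-1 replicate 1 (-1.14, 0.0768), 2 (-1.20, 0.0627) or 3 (-0.95, 0.122). Over all alternatives its adjusted p ran from 0.00304 to 0.136.

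Loxl1, which acts on tropoelastin and binds Fbln5, had 850, 794, 522 and 319 CPM in primary cultures and 463, 714, 633, 680 and 409 CPM in SIRMu-1, inside the primary range in every library. The difference was -0.10 ± 0.29 (SE) on the log2 scale, and its sign turned without primary replicate 1 (0.08) or 2 (0.04), with a replicate block (0.10) and with libraries summed by file-name code (0.07). In rMC-1 it had 115, 65.1 and 84.3 CPM, below every other library, and it fell by 2.82 ± 0.36 (SE) on the log2 scale against primary cultures (edgeR adjusted p = 3.06e-05). Counts of Lox per 100 counts of Loxl1 were 43.2 to 150.5 in primary cultures, 114.9 to 259.3 in SIRMu-1 and 230.0 to 446.2 in rMC-1, without correction for length.

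Over the 9 measured genes, rMC-1 against primary cultures gave 8 lower and 1 higher, and none overlapped between these groups. The 8 include Eln, Fbn2, Mfap2 and Mfap5, which met the filter on low counts only through other groups. In this comparison 70.8% of all genes tested were called, 38.9% lower and 31.9% higher, and 38.2% and 32.7% did not overlap, so a called gene is the common case here. The median log2 difference of the 9 was -5.59 against -0.15 for all genes tested. In SIRMu-1 against primary cultures, 5 were called higher and 2 lower, with 46.1% of all genes called (21.7% higher and 24.4% lower). Of the 9, 4 lay above and 1 below every primary library, which held for 17.2% and 18.1% of all genes. In SIRMu-1 against rMC-1, 7 were called higher and 1 lower, with 63.2% called (32.7% higher and 30.5% lower), and the same numbers did not overlap (32% and 31% of all genes). Nothing is read from these counts, because the genes were chosen on them. The comparisons share the primary libraries or the SIRMu-1 libraries, so they are not independent of each other.

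**Figure D2:**
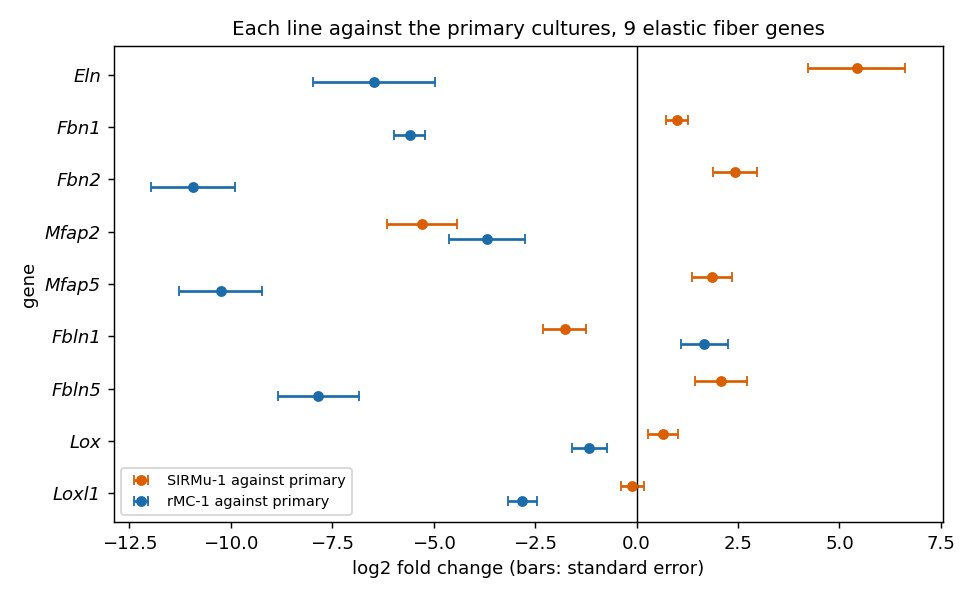
Log2 difference from primary cultures of each measured elastic fiber gene in SIRMu-1 and in rMC-1, with bars of 1 SE from the edgeR fit and a line at 0. In rMC-1 against primary cultures the values ran from -10.93 for Fbn2 to 1.67 for Fbln1, while in SIRMu-1 against primary cultures Loxl1 lay at -0.10.

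Within SIRMu-1, no gene of the 9 passed the test for gentamicin and amphotericin B, which compared replicates 3 and 5 with replicates 1, 2 and 4. The edgeR test called 0% of 11321 genes, with 433 (3.82%) at an unadjusted p under 0.05, and DESeq2 called 3 higher and 1 lower. Fbln1 had the smallest unadjusted p of the 9, at 0.00903 (edgeR adjusted p = 0.977), with 2.19 and 6.56 CPM with the drugs against 1.04 to 1.48 CPM without, a log2 difference of 1.72 ± 0.54 (SE). It was 0.72 without SIRMu-1 replicate 5 and 2.30 without SIRMu-1 replicate 3. Mfap5 was 168 and 201 CPM with the drugs and 39.7 to 122 CPM without, a log2 difference of 1.07 ± 0.57 (SE, edgeR adjusted p = 0.977). The libraries with the drugs lay above the others for Fbln1, Mfap2 and Mfap5, which was the case for 8.72% of all genes. None of the 9 lay below, against 7.23% of all genes. For Eln the difference was 0.57 ± 1.33 (SE), so at this spread a change of several fold in either direction was not detectable.

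With passage as a number and a term for the drugs, edgeR called 0% of 10347 genes in the 5 SIRMu-1 libraries, with 427 (4.13%) at an unadjusted p under 0.05 and 2 residual degrees of freedom. Eln had a slope of 0.39 ± 0.09 (SE) per passage on the log2 scale, with an unadjusted p of 0.0114 and an edgeR adjusted p of 0.94, and its slope stayed between 0.31 and 0.62 under the alternatives run. DESeq2 called 36 genes higher and 22 lower with passage, and Eln was the only one of the 9 among them (slope 0.39, adjusted p = 0.000163). The slope of Fbn1 was -0.01 ± 0.05 and that of Fbn2 0.02 ± 0.07 (SE). Mfap2 had too few counts in SIRMu-1 to be fitted.

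The 9 genes did not vary as 1 block among the cultures of a group. After the group mean was taken away from the log2 CPM, Pearson's r over the 12 libraries was 0.81 for Fbn2 with Loxl1, 0.73 for Fbn1 with Loxl1 and 0.66 for Fbn1 with Fbn2, as a description. For Eln it was -0.10 with Fbn1 and -0.35 with Fbn2, and for Lox with Mfap5 it was -0.66. The points of these correlations share their library, its depth and its scaling. SIRMu-1 replicate 2 had the highest Fbn1, Fbn2, Fbln5, Lox and Loxl1 of its line and the lowest Mfap5. It also had the lowest Mki67, a gene of dividing cells, at 38.9 CPM against 173 to 317 CPM in the other SIRMu-1 libraries, whose part in these levels was not tested. Primary replicate 4 had the lowest Fbn1, Fbn2, Fbln5, Loxl1 and Mfap5 of its group and the highest Mfap2 and Fbln1.

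**Figure D3:**
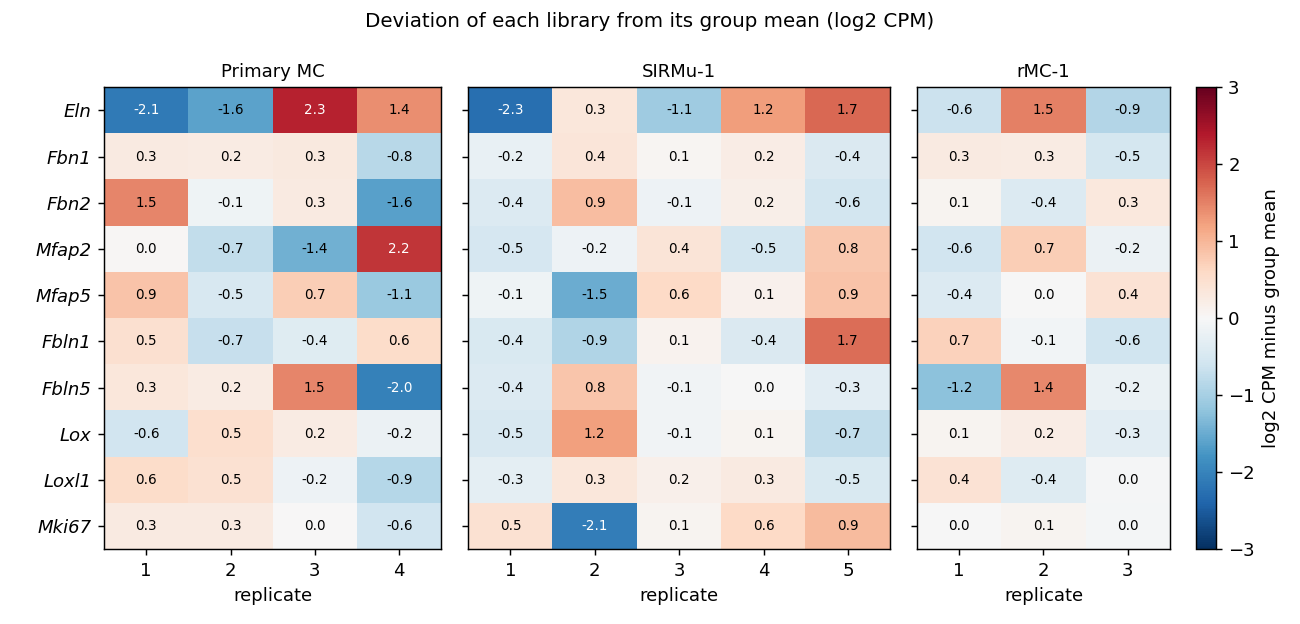
Deviation of each measured elastic fiber gene from its group mean in log2 CPM, by library, as a colour scale with 1 row per gene. Eln was 2.12 and 1.60 below its group mean in primary replicates 1 and 2 and above it in primary replicates 3 and 4, a pattern that Fbn1 did not share.

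Over the 12 libraries, the 5 genes whose log2 CPM was most like that of Eln were Foxc2 (Pearson's r = 0.97), Ptgis, Gdf6, Ddx3 and Anapc4 (0.96 for the last). For Fbn1 they were Cacna1c, Casq2, Adpgk, Aldh1l2 and LOC100909539, with r from 0.99 to 1.00. For Fbn2 they were Casq2, LOC100909539, Fbn1, Kctd17 and Nostrin, all at 0.99. With group differences this large, the likeness describes mostly the order of the 3 groups.

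Other genes of the elastic fiber pathway were read from a list of 61, of which 43 were tested. In rMC-1 against primary cultures, 36 fell, 2 rose and 5 did not pass the test, and the median log2 difference of the list was -2.28, against -0.15 for all genes tested, of which 38.9% were lower and 31.9% higher. In SIRMu-1 against primary cultures, 18 fell, 4 rose and 21 showed no call. The median there was -0.59, against -0.02 for all genes tested, of which 24.4% were lower and 21.7% higher. In SIRMu-1 against rMC-1, 33 were higher, 2 lower and 8 did not pass, beside 32.7% of all genes higher and 30.5% lower. Efemp1 and Mmp9 met the filter on low counts only through primary cultures, and Itgb6 met it through rMC-1. Itga8, Itgb3 and Itgb8 met it only through primary cultures and SIRMu-1. Calls of these genes against the other groups had their direction fixed by the filter, and the counts above include them. Of 9 listed proteases able to degrade elastin or activate such enzymes, 5 were tested (Mmp2, Mmp9, Mmp14, Ctsk and Ctsl) and the other 4 had too few counts. For Mmp9, the filter fixed the direction in both lines against primary cultures. All 5 fell in both lines against primary cultures, where 24.4% (SIRMu-1) and 38.9% (rMC-1) of all genes fell. The largest change of these in SIRMu-1 was in Ctsk, cathepsin K, at 61.3 to 327 CPM in primary cultures and 1.04 to 1.8 CPM in SIRMu-1 (log2 -7.23 ± 0.52, SE, edgeR adjusted p = 3.33e-06). In rMC-1 it was in Mmp2, a gelatinase, at 1211 to 3668 CPM in primary cultures and 0.309 to 1.17 CPM in rMC-1 (log2 -12.16 ± 0.70, SE, edgeR adjusted p = 1.03e-07). Leaving out rMC-1 replicate 1 made this -12.83.

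Among 10 tested microfibril partners, 1 rose, 1 fell and 8 did not pass the test in SIRMu-1 against primary cultures. Of all genes, 21.7% rose and 24.4% fell there. In rMC-1, 1 partner rose and 7 fell, beside 31.9% and 38.9% of all genes. The one that rose was Ltbp4 in both lines, a latent TGF-beta binding protein needed for elastin assembly. Its level was 5.07 to 29.1 CPM in primary cultures, 87.0 to 308 CPM in SIRMu-1 and 118 to 127 CPM in rMC-1, above every primary library (log2 3.52 ± 0.51 and 3.09 ± 0.53, SE, edgeR adjusted p = 0.000246 and 0.000268). Without primary replicate 1 these differences were 4.12 and 3.69. Ltbp2, which binds fibrillin and Fbln5, was 1726 to 8280 CPM in SIRMu-1 and 6.95 to 10.1 CPM in rMC-1 (log2 9.23 ± 0.60, SE, edgeR adjusted p = 3.41e-07).

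Of 3 other fibulin genes tested, Efemp2, the fibulin that carries Lox to tropoelastin, rose modestly in SIRMu-1, at 465 to 609 CPM against 260 to 374 CPM in primary cultures (log2 0.74 ± 0.14, SE, edgeR adjusted p = 0.00145). The other 2, Efemp1 and Hmcn1, fell in SIRMu-1, and all 3 fell in rMC-1, beside 24.4% and 38.9% of all genes. Efemp1 met the filter on low counts only through the primary libraries, so its direction was fixed by the filter. It had 130 CPM in primary replicate 4 and 1.43 to 5.39 CPM in the other primary libraries. In all it had 1 count in SIRMu-1 and 2 counts in rMC-1. Hmcn1, a hemicentin, had 83.7 to 974 CPM in primary cultures, 11.5 to 142 CPM in SIRMu-1 and 0.421 to 0.855 CPM in rMC-1. Its call in SIRMu-1 (log2 -2.67 ± 0.78, SE, edgeR adjusted p = 0.0156) was lost without primary replicate 2 (-1.98, 0.0597) and without the SIRMu-1 libraries that had the drugs (-2.56, 0.0619).

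Of the 8 genes of cross-linking and its helpers, 6 fell and 1 rose in rMC-1 against primary cultures, beside 38.9% and 31.9% of all genes. In SIRMu-1, 3 fell and 1 rose, beside 24.4% and 21.7% of all genes. The one that rose in SIRMu-1 was Loxl4, a lysyl oxidase (log2 1.71 ± 0.57, SE, edgeR adjusted p = 0.0279), at 39.5 to 106 CPM against 7.22 to 68.4 CPM in primary cultures. The groups overlapped through primary replicate 3. This call was lost without primary replicate 1, 2 or 4 or SIRMu-1 replicate 3 or 4 (adjusted p from 0.0519 to 0.0744), and the difference was 2.84 without primary replicate 3. Tgm2, a transglutaminase that cross-links fibrillin and other matrix proteins, rose in rMC-1 to 67.4 to 115 CPM from 6.47 to 44.0 CPM (log2 2.07 ± 0.63, SE, edgeR adjusted p = 0.0115). The difference was 2.74 without primary replicate 4.

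Of 10 tested receptor genes, 8 fell in rMC-1 against primary cultures, beside 38.9% of all genes. The 8 include Itga8, Itgb3 and Itgb8, which met the filter on low counts only through the other groups. In SIRMu-1, 4 receptor genes fell and 1 rose, beside 24.4% and 21.7% of all genes. Itga8, an integrin subunit that binds matrix ligands with the RGD sequence, rose in SIRMu-1 to 442 to 860 CPM from 88.9 to 501 CPM, with an overlap through primary replicate 3 (log2 1.65 ± 0.44, SE, edgeR adjusted p = 0.0097). The difference was 2.43 without that library. Itga8 was at 0.0618 to 0.0855 CPM in rMC-1, a log2 difference from primary cultures of -11.47 ± 0.87 (SE), or -10.69 without primary replicate 3. Itga8 met the filter on low counts only through the other groups, so no p-value is given for rMC-1. Itgb3, the partner of the alpha-v integrin in elastin and fibrillin binding, fell in SIRMu-1 (log2 -3.07 ± 0.45, SE, edgeR adjusted p = 0.000256). Dcn, decorin, which is also one of the 8 fibroblast markers, fell in SIRMu-1 from 110 to 1962 CPM to 0.165 to 20.3 CPM (log2 -7.23 ± 1.47, SE, edgeR adjusted p = 0.00205). The difference was -10.15 without SIRMu-1 replicate 5 and -5.82 without primary replicate 2. In rMC-1 Dcn fell to 0.536 to 0.969 CPM (log2 -9.77 ± 2.09, SE, edgeR adjusted p = 0.0013), and by 8.36 without primary replicate 2.

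**Figure D4:**
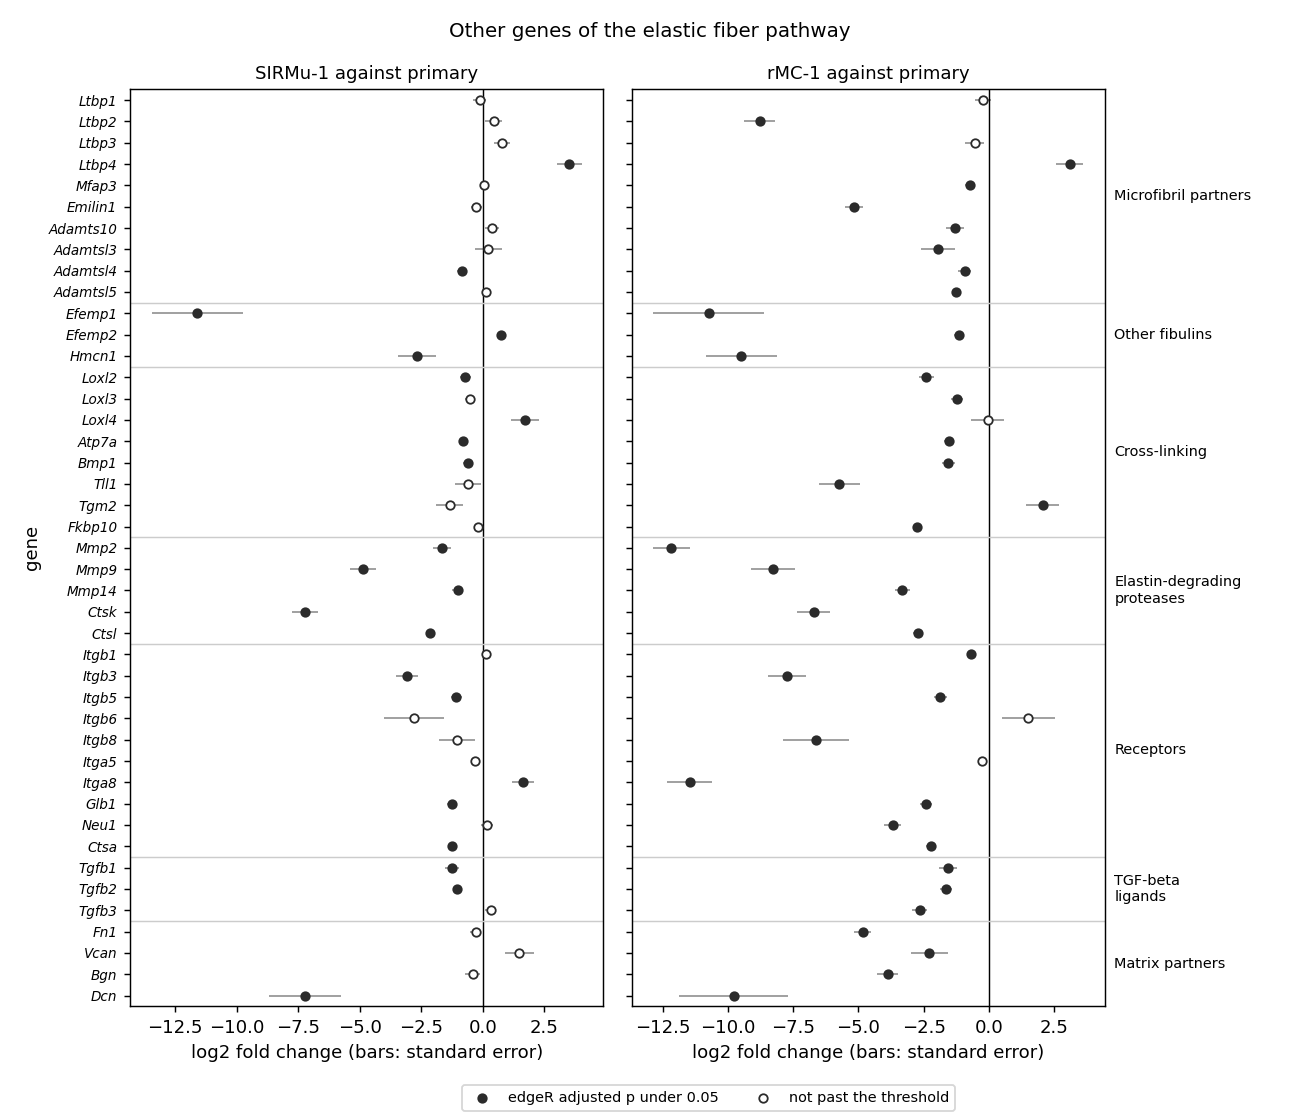
Log2 difference from primary cultures of the 43 tested genes of the elastic fiber pathway list in SIRMu-1 and in rMC-1, 1 row per gene, with filled points for genes that passed the edgeR test at an adjusted p under 0.05. Ltbp4 lay to the right of 0 in both lines (3.52 and 3.09), and Mmp2 and Itga8 were below -11 in rMC-1.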

How the data were processed

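Per the labels' protocols, polyadenylated RNA was made into stranded libraries. The tools named in the submitters' processing notes are STAR 2.5.3a, cutadapt 1.8.1 and edgeR 3.18.1, and the build is rn6. No source used here gives the annotation or the strand setting. For each library the authors deposited a table of raw read counts per gene. Reads outside genes (24.2% to 30.3% of a library) and those with several positions (9.47% to 12.3%) were left out.

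Counts were fitted in R 4.3.3 with edgeR 4.0.16: its expression filter, TMM factors and a quasi-likelihood model of 3 group means over 12 libraries with 9 residual degrees of freedom. The drugs were tested with 4 group means, and passage within SIRMu-1. Benjamini-Hochberg adjustment ran over all genes tested, and a call is an adjusted p under 0.05. The scripts were tested on simulated data. Which cultures came from 1 animal is not labelled, so the p-values rest on a spread among libraries that may be technical. No 2 libraries agreed within sampling noise (chi-square per gene 24.2 to 443.6 over 19 pairs).

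The members and lists were chosen with earlier results of these data known. All 10 members were to be named. From the pathway list, the rule took per direction the 4 called genes with the largest difference and a mean log2 CPM of at least 1; genes listed by name inside a counted group are the exceptions. Likeness took the 5 most correlated genes. Marker lists were also written for astrocytes (summed 1.605 to 44.56 CPM over all libraries), microglia (0.132 to 9.15), endothelium (1.55 to 46.2), pigment epithelium (2.70 to 19.6) and retinal neurons (2.40 to 201.9). Alternatives were DESeq2 1.42.0, other scalings, filters and prior counts, libraries summed by file-name code, a replicate block and leaving out each library.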

Additional observations from a re-analysis of the deposited data

Results flagged for a closer look

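In groups of 4 or 5 libraries, the highest or lowest library was set against the others by Dixon's test at 95%, which chance passes in about 1 of 20 groups. Of 40 gene and group pairs tested, 10 had such a library. Among the elastic fiber genes, Fbn1 was 1271 CPM in primary replicate 4 (others 2686 to 2787), and Mfap2 was 9.96 CPM in the same library (others 0.760 to 2.25). Fbln5 was 3212 CPM in SIRMu-1 replicate 2 (others 1349 to 1778), and Lox was 1850 CPM there (others 470 to 837). Fbln1 was 6.56 CPM in SIRMu-1 replicate 5 (others 1.04 to 2.19). Among the other pathway genes, SIRMu-1 replicate 5 also stood apart for Ltbp4 at 308 CPM (others 87.0 to 151) and for Dcn at 20.3 CPM (others 0.165 to 1.35). Primary replicate 3 stood apart for Loxl4 at 68.4 CPM (others 7.22 to 16.6) and Itga8 at 501 CPM (others 88.9 to 159), and primary replicate 4 for Ltbp2 at 2448 CPM (others 4148 to 4326).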

How the results depend on the processing

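Between groups, every elastic fiber gene but Loxl1 in SIRMu-1 against primary cultures kept its direction under all alternatives run. Fbln1 and Lox lost their calls in rMC-1 against primary cultures as given above, and Tgm2 lost its call with libraries summed by file-name code (log2 1.88, adjusted p = 0.0581). Summing by that code, which leaves fewer samples, gave 1466 genes higher and 1707 lower in SIRMu-1 against primary cultures, with 3 members higher and 1 lower and 2 pathway genes higher and 11 lower; Loxl4 (1.41, 0.208), Itga8 (1.50, 0.139) and Hmcn1 (-2.22, 0.103) lost their calls. It also left 1 pathway gene higher in rMC-1 against primary cultures. Scaling by library totals moved the median of all genes by -0.45 on the log2 scale in SIRMu-1 against rMC-1 and by 0.47 in rMC-1 against primary cultures, and gave 2324 genes higher and 5227 lower in SIRMu-1 against rMC-1, in place of 3702 and 3455. A prior count of 2 moved Mfap5 in SIRMu-1 against rMC-1 from 12.10 to 10.44 and Fbn2 from 13.36 to 12.24. A filter at 1 CPM left 1 pathway gene lower in SIRMu-1 against rMC-1. Beyond these constructions, the cause of the shifts was not tested. Same-numbered libraries of different groups correlated at -0.063 to 0.098 in their deviations, and the other pairs at -0.156 to 0.127. Different lines need not share a response to a batch, so this cannot tell whether the numbers pair libraries. With a replicate block, 2 members were lower in SIRMu-1 against rMC-1. Leaving out 1 library, members lower there ranged from 1 to 2 (2 without primary replicate 4) and members higher in rMC-1 against primary cultures from 0 to 1 (0 without primary replicate 2 or 3 or rMC-1 replicate 1). Genes higher with the drugs ranged from 0 to 2 (2 without SIRMu-1 replicate 3). For passage, DESeq2 called 1 member and 2 pathway genes higher and 2 pathway genes lower; it called 36 genes higher and 22 lower, and 3 higher and 1 lower for the drugs. Leaving out 1 library turned the drug difference of Eln (-1.43 to 1.37) and Loxl1 (-0.60 to 0.031). It also turned the passage slope of Fbn1 (-0.055 to 0.10), Fbn2 (-0.045 to 0.20), Fbln1 (-0.044 to 0.18), Fbln5 (-0.023 to 0.18), Lox (-0.071 to 0.25), Loxl1 (-0.07 to 0.12) and Mfap5 (-0.068 to 0.035), none of which passed the test. Counts of 0 to 3 per library limit Fbn2 and Mfap5 in rMC-1, and 12 counts in all limit Mfap2 in SIRMu-1.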
